A study of Mus musculus with 61 samples.

Results

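The N642H form of STAT5B was compared with unmutated STAT5B in mouse CD4+ T cells that lack STAT5A and STAT5B of their own. The 6 libraries were chosen by their titles, 3 named S5KO_CD4_Stat5b_N642H and 3 named S5KO_CD4_Stat5b, out of 61 RNA-seq libraries in the series. The study examined STAT5B with a phenylalanine or a histidine in place of a tyrosine of its SH2 domain (Y665F and Y665H) and took N642H, an activating mutation known from T cell leukaemia, as its positive control. The question here is what N642H adds to unmutated STAT5B delivered by the same kind of vector.

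All 6 libraries came from C57BL/6 mice aged 2 months, labelled Stat5a/b flox/flox, in which a Cd4-Cre transgene removes both genes in thymocytes before CD4 and CD8 cells part. Naive CD4+ T cells, low in CD44 and without CD25, were sorted from lymph nodes and spleens that had been pooled. They were activated through the T cell receptor and CD28, transduced with a retrovirus, kept with IL-2 for 48 h and sorted again as GFP+ CD4+ cells. Both groups therefore shared the deletion, the activation, the cytokine and the viral backbone, and differed in the construct. The constructs were read from the virus and not from the Stat5b locus. The same null cells with the empty vector, Y665F or Y665H gave 9 further libraries, which entered the fit, and CD4+ T cells titled WT gave 15 more with the same 5 vectors. The genotype entry of the WT libraries also names the floxed alleles, so that their background was taken from the title. The extraction entry of the libraries names mammary tissue, and the account of sorted T cells follows the titles and the study's methods. Nothing in the labels says whether libraries of a group came from separate mice, and the p-values measure only the spread between these libraries.

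STAT5A and STAT5B are transcription factors that cytokine receptors with the common gamma chain, above all the IL-2 receptor in T cells, switch on through the kinases JAK1 and JAK3. The phosphorylated proteins pair through their SH2 domains, enter the nucleus and bind DNA at the palindrome TTCNNNGAA, where they raise genes such as Socs2, Cish and Il2ra. The SOCS and CIS proteins made in response restrain the receptor, and CD25, the product of Il2ra, makes the cell more sensitive to IL-2. The N642H change also lies in the SH2 domain and is known to prolong the active state of STAT5B.

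The constructs were built on the transcript Stat5b-202. Its unmutated sequence around the changed codon is shown first, to place the mutation, with that codon in capitals. The codon AAT, for the asparagine that N642H replaces by histidine, lies in exon 16 of 19 at chr11:100787360-100787362 on the minus strand of GRCm38, within the coding window chr11:100787348-100787374. The promoters of 3 genes follow, because the 250 bases before their RefSeq starts hold a match to the STAT5 pattern TTCNNNGAA, in capitals. The pattern matches on both strands, while its 3 middle letters can differ between them. Pkib is called below, Batf3 is called with a replicate block, and Irf8, called in neither fit, is a gene the study follows and a member of the STAT5-bound list. Pkib and Batf3 are not members of that list. The windows are Pkib (chr10:57631731-57631980, plus strand), Batf3 (chr1:191098164-191098413, plus strand) and Irf8 (chr8:120736108-120736357, plus strand), all on GRCm38.p6.
Stat5b: agaatgttttggAATctgatgcctttt
Pkib: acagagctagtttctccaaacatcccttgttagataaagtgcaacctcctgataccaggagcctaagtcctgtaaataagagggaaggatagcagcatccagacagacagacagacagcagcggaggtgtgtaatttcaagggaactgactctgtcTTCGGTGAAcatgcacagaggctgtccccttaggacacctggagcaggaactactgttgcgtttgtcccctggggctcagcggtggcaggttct
Batf3: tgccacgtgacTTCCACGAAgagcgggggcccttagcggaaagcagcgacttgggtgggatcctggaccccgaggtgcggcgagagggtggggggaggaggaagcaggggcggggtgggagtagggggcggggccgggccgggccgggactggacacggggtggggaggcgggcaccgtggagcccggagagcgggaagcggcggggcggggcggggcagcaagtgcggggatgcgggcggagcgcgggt
Irf8: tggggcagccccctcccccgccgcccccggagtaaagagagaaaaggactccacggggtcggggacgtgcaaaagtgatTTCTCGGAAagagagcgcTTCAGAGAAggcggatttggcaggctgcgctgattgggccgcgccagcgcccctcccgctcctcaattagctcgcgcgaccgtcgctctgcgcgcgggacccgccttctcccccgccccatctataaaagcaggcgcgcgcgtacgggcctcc

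The letters TTCNNNGAA lay 94 bases before the start of Pkib, 239 before Batf3, and 171 and 153 before Irf8. Among the 14 genes called below, RefSeq promoters were matched for 11, and 2 of these (18.2%), Pkib and Lta, held the letters in the 250 bases. For Lta the start used in the table lies inside the gene span given below, so that its window is not before the gene and is not printed. They were found in 6 of 49 matched promoters (12.2%) of the 63 genes called higher with a replicate block, in 11 of 85 (12.9%) of the 113 genes of the STAT5-bound list and in 2197 of 27025 (8.13%) of all promoters in the table. The match of letters is a description and shows no binding.

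Reads counted on genes numbered 24437975, 37473883 and 45211427 at the lowest, median and highest with STAT5B, and 19735230, 37547284 and 48757430 with N642H. Levels are given as CPM, read counts scaled to the TMM-adjusted library size, always for replicates 1, 2 and 3 in this order. Stat5a, the deleted gene that no vector carries, lay between 1.74 and 15.7 CPM in the 15 null libraries and between 95.5 and 174 CPM in the 15 WT libraries. Stat5b was restored by both constructs and was not higher with N642H, with 369, 348 and 253 CPM for STAT5B and 211, 260 and 183 CPM for N642H against 2.83, 5.53 and 9.82 CPM with the empty vector. The groups overlapped, and the log2 fold change of N642H over STAT5B was -0.57 ± 0.29 (SE, n = 3 libraries a group, edgeR adjusted p = 0.853). Within replicate numbers Stat5b with N642H was 0.572 to 0.748 times its level with STAT5B. The edgeR adjusted p was 0.321 with the replicate number as a block. Libraries with the same replicate number deviated together in 30 of 30 pairs of null libraries, so that results with the number as a block are given beside those without it. Of the fixed markers of CD4+ T cells, 11 of 12 were tested. None passed the thresholds given below, where 0.0696% of all genes passed, and 0.328% with the block. Of the 11, 2 were higher with N642H, where 47.97% of all genes were. Every N642H library lay above every STAT5B library for 1 of the 11 and below for 4. The marker sums did not overlap, with 4838 to 5094 CPM for STAT5B and 4388 to 4766 CPM for N642H. The sums of B cell markers were 5.16 to 5.63 CPM with STAT5B and 5.26 to 7.71 CPM with N642H, those of myeloid markers 3.82 to 5.84 and 4.41 to 9.08 CPM, and those of CD8 and NK markers 12.2 to 14.5 and 10.2 to 14.4 CPM. Since these are bulk libraries, more cells with a transcript and more transcript per cell cannot be told apart.

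N642H raised a small set of genes beyond unmutated STAT5B. They encode secreted factors (Il9, Lta, Nppc, Ctgf), surface receptors (Nrp2, Plaur), cytoskeletal and signalling proteins, and a long noncoding RNA, with log2 fold changes of 1.19 to 6.90. By edgeR's quasi-likelihood test, 14 of 20113 genes passed, or 0.0696% of the genes tested, where passing means an adjusted p under 0.05 together with a change of more than 1 on the log2 scale, and all 14 were higher with N642H. Once the replicate number entered as a block, 66 genes or 0.328% passed, 63 higher and 3 lower, and the 14 were among them. The 3 N642H libraries lay above the 3 STAT5B libraries for every one of the 14 genes, which were called on the same contrast. Of all genes 1067 or 5.31% lay apart in this way, and 1546 lay wholly lower with N642H. The 14 had edgeR adjusted p-values of 0.0015 to 0.0496 without the block and of 1.06e-05 to 0.00109 with it. Without the block, 3 genes were called over all genes tested after leaving out N642H replicate 2, STAT5B replicate 2 or STAT5B replicate 3. The count was 7 without N642H replicate 1, 6 without STAT5B replicate 1 and 25 without N642H replicate 3. These counts can include genes outside the 14.

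**Figure D1:**
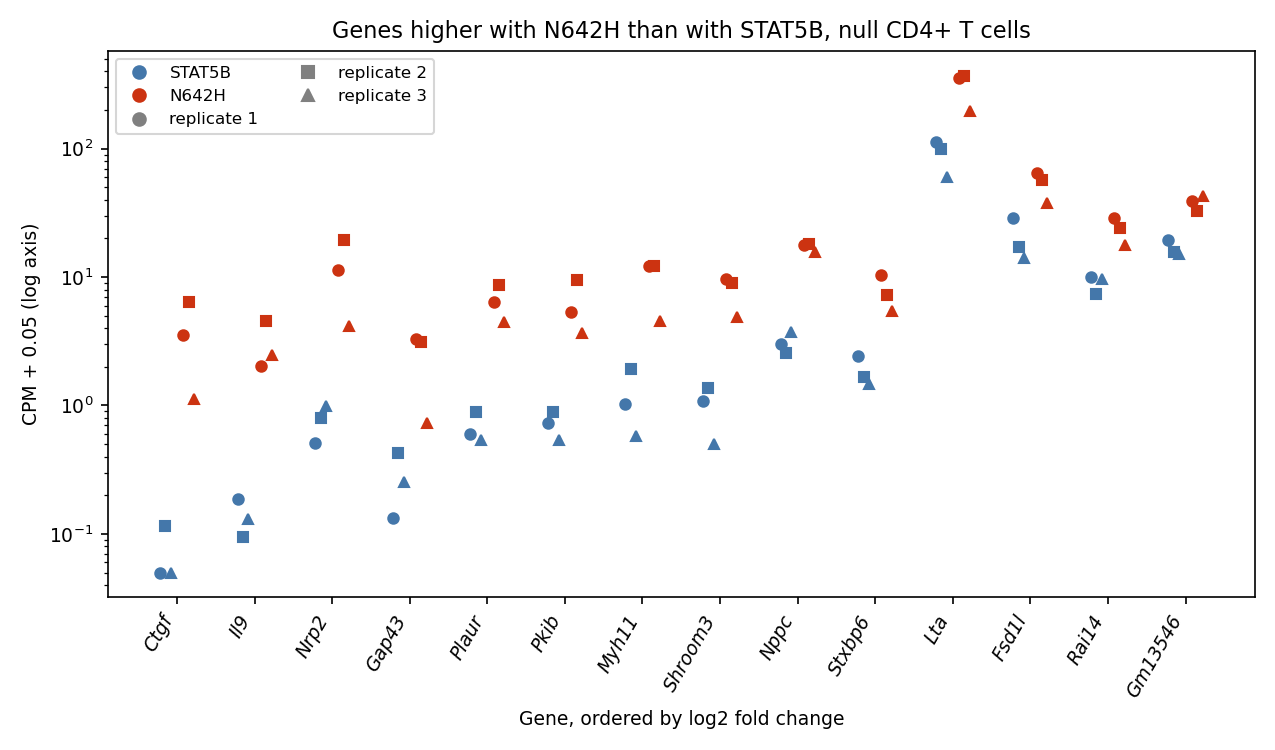
CPM plus 0.05 on a log axis for the 14 genes called in null CD4+ T cells, 1 point per library, in blue for STAT5B and red for N642H, with circles, squares and triangles for replicates 1, 2 and 3. The red points lie above the blue points for each gene, and the gap is widest for Ctgf and Il9, whose STAT5B levels are under 0.2 CPM.

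The secreted factors covered the widest span of levels. Il9 (chr13:56479277-56482257, GRCm38.p6) encodes a cytokine of T helper cells that acts on mast cells. It was near its floor with STAT5B, with 0.136, 0.0439 and 0.0816 CPM from 5, 2 and 2 reads, and reached 1.99, 4.49 and 2.44 CPM with N642H from 75, 209 and 50 reads. Replicate number 1, which holds the lowest N642H and the highest STAT5B library, gave a fold of 14.6, and the log2 fold change was 5.07 ± 0.70 (SE, n = 3 a group, edgeR adjusted p = 0.00843). Lta (chr17:35203165-35205578) encodes lymphotoxin alpha, a TNF family ligand needed to form lymph nodes. It was the most abundant of the 14, with 113, 98.7 and 59.7 CPM for STAT5B and 357, 371 and 198 CPM for N642H. The groups stayed apart although replicate 3 was lowest in each, and within each replicate number N642H was 3.16 to 3.76 times as high (log2 fold change 1.77 ± 0.32, edgeR adjusted p = 0.0352).

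Nppc (chr1:86666293-86670573) encodes the precursor of C-type natriuretic peptide, a ligand better known from bone and vessels. It had the smallest adjusted p without the block, with 2.95, 2.52 and 3.72 CPM for STAT5B and 17.8, 17.9 and 15.5 CPM for N642H. Its libraries were close within each group, and the log2 fold change was 2.49 ± 0.29 (SE, n = 3 a group, edgeR adjusted p = 0.0015). Ctgf (Ccn2 in RefSeq, chr10:24595442-24598683), a matricellular growth factor, was listed at 0 reads in STAT5B replicates 1 and 3 and had 0.0659 CPM in replicate 2. With N642H it had 3.51, 6.4 and 1.07 CPM. Its 3 reads in all STAT5B libraries and 452 in all N642H libraries gave a ratio of 154 at equal depth (exact 95% interval 52.2 to 747, counting error only), and the edgeR adjusted p was 0.013.

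Among surface receptors, Nrp2 (chr1:62703317-62818692) encodes neuropilin 2, a coreceptor of semaphorins and of vascular endothelial growth factor. It had 0.464, 0.746 and 0.939 CPM with STAT5B and 11.3, 19.5 and 4.15 CPM with N642H. Replicate 3 was the lowest of the N642H libraries and the highest of the STAT5B libraries, so that the fold within a replicate number ran from 4.42 to 26.1 (log2 fold change 4.05 ± 0.67, edgeR adjusted p = 0.0181). Plaur (chr7:24460937-24475970), the receptor of urokinase, had 0.546, 0.834 and 0.49 CPM with STAT5B and 6.33, 8.59 and 4.39 CPM with N642H. Its fold was even across replicate numbers, between 8.96 and 11.6, and its log2 fold change was 3.34 ± 0.52 (SE, n = 3 a group, edgeR adjusted p = 0.0129).

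Genes of the cytoskeleton and of cell shape made up a further group. Myh11 (chr16:14194527-14292188), the heavy chain of smooth muscle myosin, had 0.982, 1.87 and 0.531 CPM with STAT5B and 12.2, 12.1 and 4.49 CPM with N642H. Shroom3 (chr5:92683435-92965759), an actin-binding protein that narrows the apical side of epithelial cells, had 1.04, 1.32 and 0.449 CPM against 9.57, 8.91 and 4.88 CPM. Gap43 (chr16:42248552-42340651), a protein of growth cones, had 0.0819, 0.373 and 0.204 CPM against 3.24, 3.07 and 0.683 CPM. In these 3 genes replicate 3 was the lowest N642H library, and for Gap43 its fold within the replicate number was 3.35 where replicate 1 gave 39.6. The log2 fold changes were 3.05 ± 0.54 for Myh11, 3.02 ± 0.51 for Shroom3 and 3.37 ± 0.58 for Gap43, with edgeR adjusted p-values of 0.033, 0.0216 and 0.0247. Rai14 (chr15:10568971-10719267), an ankyrin-repeat protein of actin bundles, was higher by less, with 9.93, 7.33 and 9.59 CPM against 28.9, 23.9 and 17.8 CPM (log2 fold change 1.40 ± 0.19, edgeR adjusted p = 0.00481). Its fold of 1.85 in replicate 3 was the smallest of any of the 14 genes within a replicate number.

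The other 4 genes were Pkib, Stxbp6, Fsd1l and Gm13546. Pkib (chr10:57631981-57741112), an inhibitor of protein kinase A whose promoter is printed above, had 0.682, 0.834 and 0.49 CPM with STAT5B and 5.29, 9.51 and 3.61 CPM with N642H, a log2 fold change of 3.17 ± 0.48 (edgeR adjusted p = 0.0121). Stxbp6 (chr12:44852484-45075118), which binds the SNARE proteins of vesicle fusion, had 2.37, 1.6 and 1.43 CPM against 10.4, 7.23 and 5.41 CPM, with an even fold of 3.79 to 4.51 within replicate numbers (log2 fold change 2.09 ± 0.34, edgeR adjusted p = 0.0181). In both genes replicate 3 was lowest in each group and the groups did not overlap. Fsd1l (chr4:53631383-53707009), a protein with fibronectin and SPRY domains, had 28.9, 17.1 and 14.2 CPM against 64.8, 57 and 37.9 CPM and the largest adjusted p of the 14 (log2 fold change 1.41 ± 0.26, edgeR adjusted p = 0.0496). Gm13546 (chr2:58163974-58177063), a long noncoding RNA, had 19.5, 15.8 and 15 CPM against 39.2, 32.8 and 42.9 CPM, the smallest change of the set with a small spread (log2 fold change 1.19 ± 0.15, edgeR adjusted p = 0.0033). It lies within the span of Cytip, a lymphocyte gene, which had a mean of 579 CPM with STAT5B and 611 CPM with N642H (log2 fold change 0.08, edgeR adjusted p = 0.986). The study's methods name a stranded kit for its RNA-seq libraries. Whether the counting separated reads of the 2 genes by strand is not given in the sources used here.

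A larger set passed only once the replicate number was a block. Of the 66 genes, 26 stayed called with the block whichever of the 6 libraries was left out, and these 26 contained all 14 genes described so far. Without the block, Gm13546, Nppc and Rai14 stayed called in all 6 leave-outs. Of the 63 higher genes, 58 (92.1%) had every N642H library above every STAT5B library, against 5.31% of all genes. The 63 were called on the same contrast, so that this share in part restates their selection. The mean of the STAT5B libraries was under 1 CPM for 29 of the 63, and 28 had a mean over 10 CPM with N642H. The lowest N642H library was replicate 3 for 50 of the 63 genes, and the lowest STAT5B library was replicate 3 for 41.

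Among genes called only with the block and averaging 1 CPM or more, the 10 with the largest log2 fold change were Chil3, H19, Npsr1, 2900011O08Rik, Gad2, Batf3, Coro6, Il13, Mab21l3 and Cdhr3. H19, the imprinted noncoding RNA of fetal tissues, had 0.573, 0.724 and 0.122 CPM with STAT5B and 32.8, 3.69 and 6.49 CPM with N642H. Its level with N642H was thus highest in replicate 1, and the log2 fold change was 4.82 (edgeR adjusted p = 0.087, and 0.000561 with the block). Batf3, an AP-1 family factor of dendritic cells that T cells also make on activation, had 1.23, 1.1 and 2.16 CPM against 11.7, 10.4 and 10.2 CPM. The N642H libraries were close together and far above the STAT5B libraries (log2 fold change 2.87, edgeR adjusted p = 0.114, and 0.00425 with the block). Il13, a cytokine of type 2 immunity, had 0.846, 0.9 and 0.0816 CPM against 5.37, 3.35 and 2.49 CPM (log2 fold change 2.55, edgeR adjusted p = 0.324, and 0.0301 with the block). The Il13 call stayed in 2 of the 6 leave-outs with the block, was lost without N642H replicate 1 or 2 or STAT5B replicate 1 or 3, and was not made by DESeq2 in either fit. Chil3, a chitinase-like protein of macrophages, rested on a single library, with 0.16, 9.49 and 0.244 CPM with N642H against 0, 0.198 and 0.0408 CPM with STAT5B, and its groups overlapped. Without N642H replicate 2 its log2 fold change was 1.21 instead of 5.18, and the same library had the highest sum of myeloid markers, 9.08 CPM. The part of such cells in the Chil3 value was not tested.

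The receptor and enzyme genes of that group were low with STAT5B. Npsr1, the neuropeptide S receptor, had 0.164, 0.263 and 0.0408 CPM with STAT5B and 2.05, 3.97 and 0.878 CPM with N642H, and Gad2, a glutamate decarboxylase, had 0.3, 0.461 and 0.0408 against 2.29, 2.47 and 1.85 CPM. Their groups did not overlap, with log2 fold changes of 3.76 and 2.93 and edgeR adjusted p-values of 0.00173 and 0.00614 with the block. Mab21l3, Cdhr3, Coro6 and 2900011O08Rik (Bmerb1 in RefSeq) had log2 fold changes of 2.30, 2.13, 2.77 and 3.24, and their calls with the block stayed in 6, 2, 4 and 2 of the 6 leave-outs. Some further genes that passed with the block were chosen after their values were seen, because their roles are well known. Oxtr, the oxytocin receptor, had 0.0546, 0.198 and 0.0408 CPM against 2.5, 1.82 and 1.17 CPM and was called in every leave-out with the block (log2 fold change 4.07, edgeR adjusted p = 0.00434 with the block). Igf1, the growth factor that STAT5B controls in liver, had 0.0546, 0.11 and 0.122 CPM against 1.6, 0.988 and 0.341 CPM (log2 fold change 3.35, edgeR adjusted p = 0.0445 with the block). The Igf1 call stayed in 1 of the 6 leave-outs, without N642H replicate 3, and the largest edgeR adjusted p among them was 0.332. Cysltr1, a leukotriene receptor, had 0.737, 0.461 and 0.449 CPM against 2.55, 2.68 and 1.61 CPM, and Thbs1, thrombospondin 1, had 9.11, 7.79 and 3.96 CPM against 20.1, 22.9 and 16.1 CPM. The last 2 genes had edgeR adjusted p-values of 0.087 without the block and of 0.00963 and 0.00527 with it. With the block, the Cysltr1 call was lost without N642H replicate 2 or STAT5B replicate 3, at a largest edgeR adjusted p of 0.130, and the Thbs1 call without STAT5B replicate 3.

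The 3 genes lower with N642H passed only with the block. Bambi-ps1, a transcribed pseudogene whose reads may be shared with its parent gene, had 5.32, 7.64 and 4.9 CPM with STAT5B and 3.56, 3.22 and 2.15 CPM with N642H. Gm14085 (Slc28a2b in RefSeq, a nucleoside transporter gene) had 6.22, 7.05 and 4.29 CPM against 3.46, 2.7 and 1.9 CPM. These genes lie next to each other, at chr2:122466583-122467797 and chr2:122484941-122528040, and for both the groups did not overlap. Qpct, an enzyme that cyclizes N-terminal glutamine, had 3.33, 1.08 and 1.92 CPM against 1.6, 0.558 and 0.829 CPM, with overlapping groups and a fold of 0.432 to 0.519 within replicate numbers. With the block the log2 fold changes were -1.03, -1.15 and -1.06 for Bambi-ps1, Gm14085 and Qpct, with edgeR adjusted p-values of 0.0372, 0.0382 and 0.0286. Leaving out single libraries with the block kept the call of Bambi-ps1 in 1 of 6 leave-outs (without STAT5B replicate 1), that of Gm14085 in 2 (without N642H replicate 3 or STAT5B replicate 1) and that of Qpct in 0 (edgeR adjusted p of 0.061 to 0.228).

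The 6 genes that the study follows as STAT5 targets had every N642H library above every STAT5B library, as 5.31% of all genes did. Lta passed without the block. The study reported all but Slc3a2 as induced in its RNA-seq of null cells. Their direction with N642H was therefore in part fixed by that choice and is not independent evidence. Socs2, the feedback inhibitor of cytokine and growth hormone receptors, had 139, 131 and 86.6 CPM with STAT5B and 308, 337 and 234 CPM with N642H. Its groups were far apart, and it passed with the block (log2 fold change 1.30 ± 0.28, edgeR adjusted p = 0.111, and 0.00212 with the block). Cish, which encodes the inhibitor CIS, had 234, 222 and 163 CPM against 347, 374 and 271 CPM, also without overlap, and passed in neither fit (log2 fold change 0.68 ± 0.29, edgeR adjusted p = 0.795, and 0.256 with the block). Il2ra, the IL-2 receptor alpha chain, had 1117, 899 and 740.3 CPM against 1710.5, 1858 and 1316 CPM. It was higher by 1.53 to 2.07 times within replicate numbers, a log2 fold change of 0.83 ± 0.21 that stays under the fold minimum (edgeR adjusted p = 0.257, and 0.0331 with the block). Irf8, a factor of myeloid and lymphoid differentiation whose promoter is printed above, had 85, 96.7 and 116 CPM against 191, 193 and 197 CPM (log2 fold change 0.97 ± 0.43, edgeR adjusted p = 0.805, and 0.114 with the block). Slc3a2, the heavy chain of the amino acid carrier CD98, was near equal in RNA, with 124, 126 and 125 CPM against 133, 141 and 132 CPM (log2 fold change 0.11 ± 0.11, edgeR adjusted p = 0.97). The study followed CD98 as surface protein by flow cytometry, where it reported induction by N642H, so that the measures differ.

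Of 14 feedback genes, 8 were higher with N642H, where 47.97% of all genes were, with a median log2 fold change of 0.07, and Socs2 passed with the block, as did 0.328% of all genes. Socs3 had 12, 14.7 and 13.2 CPM with STAT5B and 21.1, 29.1 and 29.7 CPM with N642H, and Socs1 had 64.6, 84.6 and 54.2 against 96.3, 125 and 91.2 CPM. Their groups did not overlap, at log2 fold changes of 1.00 and 0.62, and their edgeR adjusted p-values with the block were 0.289 and 0.215. Of 11 STAT and JAK genes, 1 was higher, the deleted Stat5a, with a median of -0.15 and no call. Jak3, the kinase of the gamma chain, had 447, 397 and 427 CPM against 321, 355 and 377 CPM (log2 fold change -0.27, edgeR adjusted p = 0.91). Pim1, a survival kinase and known STAT5 target, had 81.2, 91.5 and 60.4 CPM against 162, 179 and 122 CPM, near 2 times as high within each replicate number and without a call (log2 fold change 0.99, edgeR adjusted p = 0.478, and 0.0912 with the block).

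Genes that the study lists as raised by Y665F over the empty vector and bound by STAT5 nearby had a median well above that of all genes. All 113 were measured and passed the filter on low counts. With N642H, 110 of 113 (97.3%) were higher than with STAT5B, where 47.97% of all genes tested were. The median log2 fold change was 0.66 with quartiles of 0.48 and 0.97, against a median of -0.01 and quartiles of -0.21 and 0.21 over all genes. The shift was alike in each replicate number, with medians of 0.61, 0.61 and 0.65 and 111, 106 and 108 of the 113 genes higher. Every N642H library lay above every STAT5B library for 68 of the 113 (60.2%, against 5.31% of all genes). Plaur, Shroom3 and Lta passed without the block and 14 of the 113 with it, where 0.0696% and 0.328% of all genes passed. Those called with the block included Socs2, Gad2, Coro6, Cdhr3, Nek6, Gpr83, Nav1, Kcnj8, Atf3 and Fam71b. The Fam71b call stayed in 2 of the 6 leave-outs with the block, at a largest edgeR adjusted p of 0.184. The study chose this list on Y665F and empty-vector libraries of the same replicate series, so that its direction is not independent evidence about STAT5 activity.

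**Figure D2:**
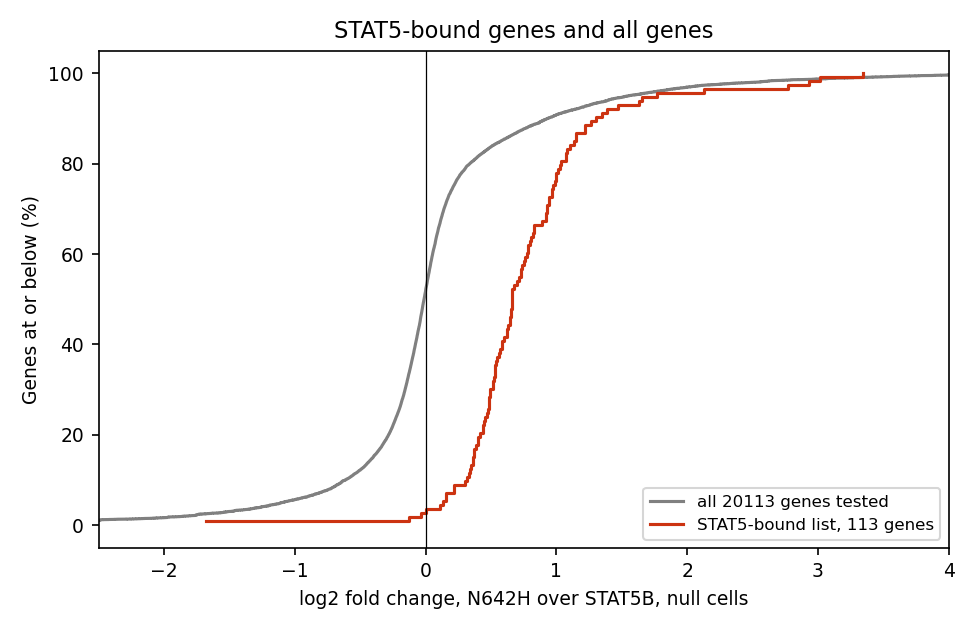
Cumulative share of genes, in percent, at or below each log2 fold change of N642H over STAT5B in null cells, in grey for all 20113 genes tested and in red for the 113 genes of the STAT5-bound list. The red curve reaches 50% at 0.66 and the grey curve at -0.01.

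Examples from this list show how the difference looked by library. Nek6, a mitotic kinase, had 16, 16.5 and 13.4 CPM with STAT5B and 38.7, 39 and 24.2 CPM with N642H, just outside the threshold without the block (edgeR adjusted p = 0.0576, and 0.00443 with the block). Gpr83, a receptor abundant in regulatory T cells, had 6.69, 7.66 and 5.84 CPM against 15.4, 20 and 9.41 CPM, and Atf3, a stress-induced factor, had 4.78, 9.57 and 11.1 CPM against 18.3, 27.7 and 19.9 CPM. Neither gene had overlapping groups, at edgeR adjusted p-values of 0.00199 and 0.041 with the block, and the Atf3 call stayed in 1 of 6 leave-outs, without N642H replicate 3. Kcnj8, a potassium channel subunit, had 24.5, 28.3 and 5.1 CPM against 48, 56.7 and 17.6 CPM, and Nav1, a neuron navigator protein, had 14.2, 11.6 and 4.65 CPM against 30.7, 26.9 and 13.7 CPM. Replicate 3 was the lowest in each group for both, so that the groups overlapped while the folds within replicate numbers were 1.96 to 3.44 and 2.16 to 2.94. With the block, the call of Kcnj8 stayed in 5 of 6 leave-outs and that of Nav1 in 3. DESeq2 with the block called Kcnj8 and neither Nav1 nor Atf3. The 3 genes of the list that were not higher were Npas2, Hist1h2bj and Cox4i2, with log2 fold changes of -0.04, -0.12 and -1.68, named after their values were seen. Cox4i2 was low, with means of 0.346 and 0.0978 CPM. It had 0.546, 0.329 and 0.163 CPM with STAT5B, and 0.186, 0.107 and a listed 0 CPM with N642H. It was lower within each replicate number, though the groups overlapped, and the part of counting error in this change was not tested.

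Of 21 cytokines, 17 were higher with N642H, where 47.97% of all genes tested were, the median log2 fold change was 0.41, and Il9, Csf2 and, less stably as given above, Il13 passed with the block, as did 0.328% of all genes. Csf2, which encodes GM-CSF, had 4.53, 2.83 and 4.94 CPM with STAT5B and 14.2, 10.4 and 10.1 CPM with N642H. Its groups did not overlap, and the log2 fold change was 1.51 ± 0.31 (SE, n = 3 a group, edgeR adjusted p = 0.087, and 0.00356 with the block). Of 10 chemokines, a separate list, 5 were higher, where 47.97% of all genes were, with a median log2 fold change of -0.09. Ccl3, a chemokine for monocytes, alone passed with the block, as did 0.328% of all genes. It had 17.8, 20.6 and 30.3 CPM against 48.8, 48.2 and 37.2 CPM, with a fold of 2.74 in replicate 1 and 1.23 in replicate 3 (log2 fold change 0.97, and edgeR adjusted p = 0.0442 with the block). The Ccl3 call was kept in 1 of 6 leave-outs, without N642H replicate 3. Of 14 TNF superfamily ligands, 5 were higher, where 47.97% of all genes were. Lta alone was called, without the block and with it, where 0.0696% and 0.328% of all genes were called. Tnf, the neighbour of Lta, had 19.9, 21.9 and 24.1 CPM against 32.8, 29.7 and 31.4 CPM, a log2 fold change of 0.51 without overlap and without a call (edgeR adjusted p = 0.488, and 0.0993 with the block).

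Of 14 genes of regulatory T cells, 12 were higher with N642H, where 47.97% of all genes were, and Gpr83 passed with the block, as did 0.328% of all genes. Their median log2 fold change of 0.16 lay within the quartiles of all genes. Every N642H library lay above every STAT5B library for 4 of the 14 and below for 2. Of all 20113 genes tested, 1067 lay wholly above and 1546 wholly below. Foxp3, their defining factor, had 11.7, 14.4 and 9.1 CPM with STAT5B and 21.8, 18.9 and 18.5 CPM with N642H, and Lrrc32, which anchors latent TGF-beta, had 16.5, 13.4 and 7.39 against 25.7, 26.2 and 24.5 CPM. The groups of both genes were apart, and their edgeR adjusted p-values with the block were 0.27 and 0.172. Among survival genes, Bcl2 had 285, 268 and 231 CPM against 315, 397 and 304 CPM, and the death-promoting Bcl2l11 had 161, 121 and 135 CPM against 99.4, 94.8 and 101 CPM. These log2 fold changes of 0.37 and -0.50 had edgeR adjusted p-values with the block of 0.125 and 0.0993, and 5 of 16 survival genes were higher.

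Of 15 naive T cell genes, 1 was higher, with a median log2 fold change of -0.20 and no call, and of 23 interferon genes 10 were higher, with a median of -0.28. Irf7, a master regulator of interferon genes, had 6, 7.22 and 9.23 CPM with STAT5B and 3.14, 4.42 and 5.95 CPM with N642H, without overlap (log2 fold change -0.74, edgeR adjusted p = 0.781, and 0.0252 with the block, under the fold minimum). Of 22 lineage factors 10 were higher, with a median of -0.01 and 1 call, higher, with the block, where 47.97% of all genes were higher and 0.328% passed. Among them Bcl6, a factor of follicular helper T cells that STAT5 is known to repress, had 11.5, 9.72 and 14 CPM against 5.9, 6.59 and 6.63 CPM, also without overlap. Its log2 fold change was -0.88 ± 0.21 (edgeR adjusted p = 0.221, and 0.00548 with the block, under the fold minimum). Of 13 TNF receptor superfamily genes 8 were higher, with a median of 0.05 and no call. Among them Cd27, a costimulatory receptor, had 98.2, 122 and 118 CPM against 66.2, 87.8 and 82.6 CPM. Of 11 checkpoint receptors 3 were higher, with a median of -0.13 and no call, and Pdcd1, which encodes PD-1, had 216, 201 and 188 CPM against 166, 157 and 134 CPM. The log2 fold changes of Cd27 and Pdcd1, -0.52 and -0.40, passed an adjusted p under 0.05 with the block (edgeR adjusted p = 0.0119 and 0.0382) and not the fold minimum. Of 11 feedback genes of the MAP kinase pathway 5 were higher, with a median of -0.03 and no call. Every N642H library lay above every STAT5B library for 2 of the 11 and below for 4. Of all 20113 genes tested, 1067 lay wholly above in this way and 1546 wholly below. Dusp6 and Spry1, of the 4 wholly lower genes, had log2 fold changes of -0.40 and -0.38. Their edgeR adjusted p-values with the block were 0.0317 and 0.0208. The 22 cell cycle genes had a median of -0.02 with 6 higher, the 16 glycolysis genes a median of -0.02 and the 19 sterol synthesis genes a median of 0.02, with no call in the 3 lists.

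**Figure D3:**
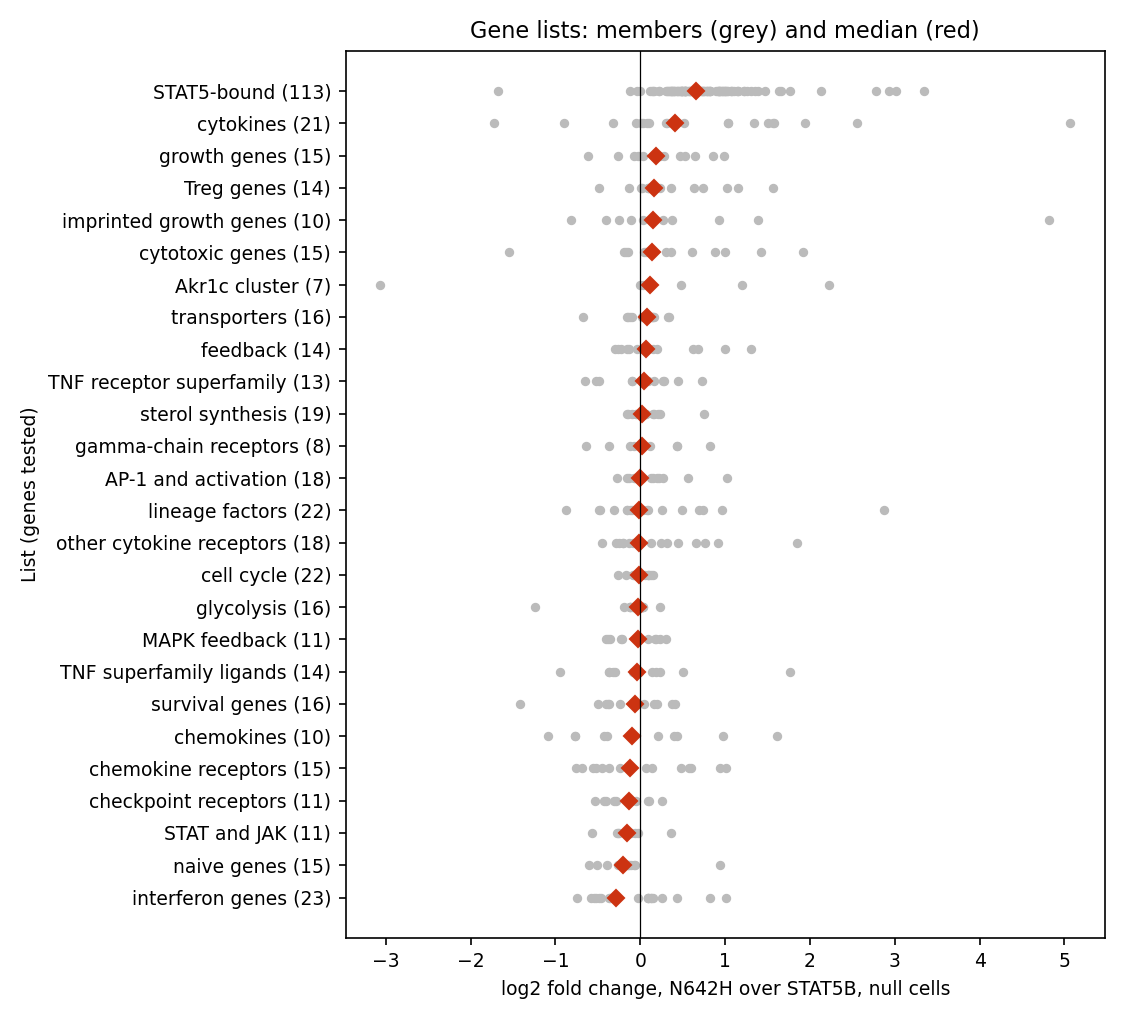
Log2 fold change of N642H over STAT5B in null cells for the tested members of each gene list (grey points) and their median (red diamonds), with the number of genes in brackets. Cell type markers and the 6 genes the study follows are not drawn. The median of the STAT5-bound list is 0.66 and that of the interferon list -0.28.

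The same genes were looked up with the other vectors in null cells. These comparisons share libraries with the one above, and only the levels are given. Nppc had 0.588, 0.363 and 1.54 CPM with the empty vector and 0.917, 1.07 and 0.821 CPM with Y665H, and 16.4, 17.4 and 15.3 CPM with Y665F. STAT5B at 2.52 to 3.72 CPM thus lay above the empty vector and Y665H, and N642H and Y665F lay side by side. Rai14 showed a different order, with 6.04, 5.8 and 8.36 CPM for the empty vector against 7.33 to 9.93 CPM for STAT5B, which overlap, and 26, 24.3 and 20.5 CPM for Y665F. Nrp2 likewise had 0.336, 0.302 and 0.607 CPM with the empty vector, overlapping the STAT5B libraries, and 8.22, 13.2 and 2.5 CPM with Y665F. Il9 was listed at 0 in all 3 empty-vector libraries and had 1.41, 2.61 and 0.533 CPM with Y665F. Stxbp6 had 0.168, 0.0906 and 0.179 CPM with the empty vector, below all STAT5B libraries, and 10.6, 7.59 and 3.53 CPM with Y665F. Bcl6 ran the other way, with 26.4, 36.1 and 37.9 CPM for the empty vector, 15.1, 23 and 26.2 CPM for Y665H, and 6.66, 6.33 and 9.56 CPM for Y665F.

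**Figure D4:**
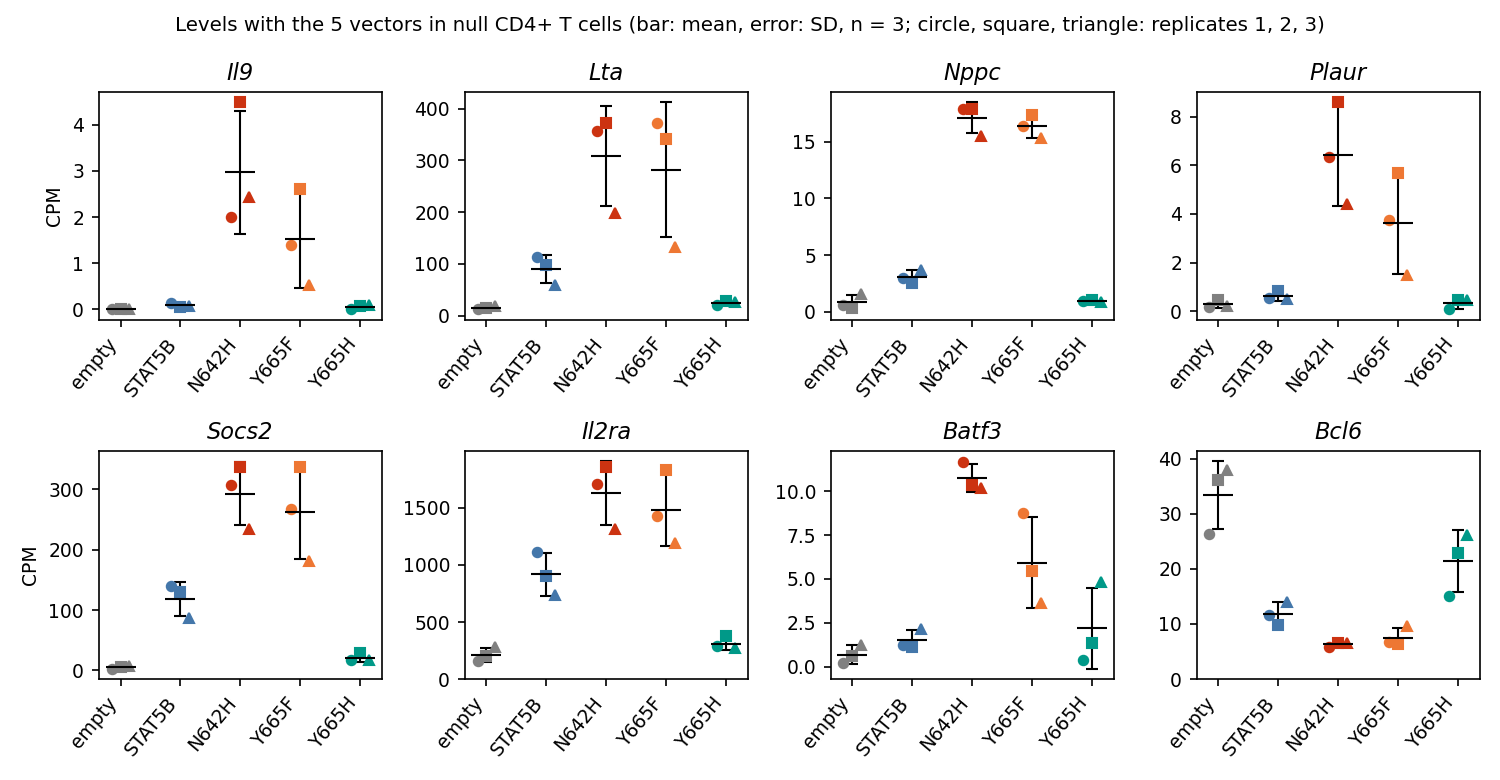
CPM of 8 genes in null CD4+ T cells with each of the 5 vectors, 1 point per library (circle, square and triangle for replicates 1, 2 and 3), with the mean as a bar and the SD as the error (n = 3). Il9, Lta, Nppc, Plaur, Socs2, Il2ra and Batf3 have their highest means with N642H and Y665F, and Bcl6 has its lowest with these constructs.

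N642H and Y665F were compared directly. By edgeR's quasi-likelihood test 0 of 20113 genes passed, with or without the block, while 181 had an unadjusted p under 0.05, and DESeq2 also called 0 with 106 at an unadjusted p under 0.05. Of the 14 genes above, Rai14 differed least, with a log2 fold change of N642H over Y665F of -0.0012, and Ctgf most, at 1.49. Ctgf had 2.14, 1.59 and 0.164 CPM with Y665F and 3.51, 6.4 and 1.07 CPM with N642H, which overlap. Batf3 had 8.74, 5.43 and 3.61 CPM with Y665F, below all N642H libraries at 10.2 to 11.7 CPM, with a log2 fold change of 0.86 (edgeR adjusted p = 1).

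The WT CD4+ T cells, which make STAT5 of their own, gave 6 other libraries of the same constructs. Most genes chosen in null cells were higher with N642H in these too. Of 20509 genes tested, Nrp2 alone passed without the block, or 0.00488%, and 94 genes or 0.458% passed with it, all higher with N642H. Leaving out N642H replicate 3 gave 10 calls without the block, and leaving out any other of the 6 libraries gave 0. Of the 14 genes, 13 were higher in WT cells with a median log2 fold change of 1.499, and 10 passed there with the block. Of the 63, 60 were higher with a median of 1.04, where 47.2% of all genes were higher with a median of -0.01. The exceptions were Stxbp6, Il13 and Chil3. Called with the block in both backgrounds were 32 genes, 50.8% of the 63 in null cells and 34.0% of the 94 in WT cells. The STAT5-bound list had a median log2 fold change of 0.30 in WT cells, with 96 of 113 higher.

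By library, Plaur had 2.17, 2.69 and 0.739 CPM with STAT5B and 14.5, 16.2 and 5.11 CPM with N642H in WT cells. These groups were apart as in null cells, with folds of 6.01 to 6.92 within replicate numbers (edgeR adjusted p = 0.308, and 3.74e-08 with the block). Il9 had 0.831, 0.543 and 0.0778 CPM against 12.6, 7.98 and 5.19 CPM, and Myh11 had 19.7, 24.1 and 3.76 CPM against 86.1, 92.5 and 23.5 CPM. For Myh11 the groups overlapped, since replicate 3 was lowest with both constructs, and the folds within replicate numbers were 3.84 to 6.25. Lta had 423, 483 and 182 CPM against 1036, 799.8 and 393 CPM, also overlapping, at folds of 1.65 to 2.45 (edgeR adjusted p = 1.00, and 1.56e-05 with the block). Nppc had 1.48, 1.21 and 1.83 CPM against 5.95, 4.42 and 7.48 CPM, without overlap. Stxbp6 did not differ in one direction, with 15.4, 19.3 and 2.28 CPM for STAT5B and 12.3, 19.7 and 3.76 CPM for N642H. Socs2 and Il2ra, with log2 fold changes of 1.30 and 0.83 in null cells, had 0.31 and 0.13 in WT cells (edgeR adjusted p = 1.00 for both, and 0.174 and 1.00 with the block).

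**Figure D5:**
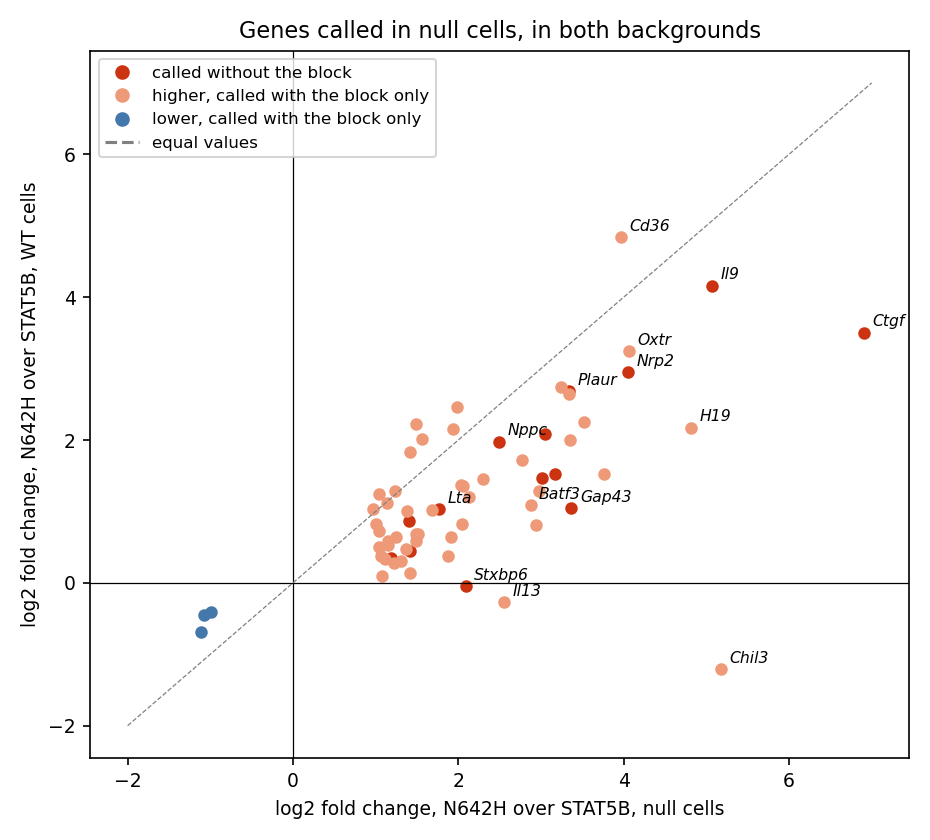
Log2 fold change of N642H over STAT5B in null cells (x axis) and WT cells (y axis) for the 66 genes called in null cells with the block, in dark red for the 14 called without it, light red for the other higher genes and blue for the lower genes, with a dashed line for equal values. The x values are from the fit without the block and chose the genes in part, and 60 of the 63 higher genes lie above 0 on the y axis.

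Whether N642H acted differently on a gene in the 2 backgrounds was tested as an interaction over all 30 CD4 libraries. By edgeR's quasi-likelihood test 0 of 21975 genes passed, while 388 had an unadjusted p under 0.05, and DESeq2 called 0 with 229 at an unadjusted p under 0.05. For the 14 genes the difference of null minus WT log2 fold changes ran from 0.55 for Nppc to 3.42 for Ctgf, and the smallest edgeR adjusted p among them was 1.00. A replicate block shared by both backgrounds also gave 0 calls. With replicate blocks of its own for each background, an analysis added after seeing the data, 3 genes passed, among them Stxbp6 of the 14, with a difference of 1.99 (edgeR adjusted p = 9.91e-04). By none of these tests did any other of the 14 pass.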

How the data were processed

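The authors trimmed the reads with Trimmomatic 0.36, aligned them with STAR to mm10 and counted them per gene with HTSeq 0.9.1. The deposited files hold these counts, whole numbers for 24421 gene symbols without normalization. Reads without a gene, 29.3% to 33.6% of those listed, entered neither library sizes nor tests.

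The analysis ran in R 4.3.3 and used edgeR 4.0.16 (limma 3.58.1). Genes with at least 10 reads over the libraries of a fit were kept, and TMM factors, glmQLFit and glmQLFTest were used, with Benjamini-Hochberg adjustment over all genes. The 15 null libraries were fitted together, so that the 5 vectors shared a spread estimate. A gene was called at an adjusted p under 0.05 if it also changed by more than 1 on the log2 scale. A standard error is the log2 fold change divided by the root of its F statistic. Because the model used all libraries, n counts those of the contrast.

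Deviations of libraries with the same number correlated over 0.1 in 30 of 30 null pairs (median 0.465, and 3 of 3 between N642H and STAT5B) and in 29 of 30 WT pairs. The number comes from the titles, which do not say what it marks. It was therefore also used as a block. Libraries of a group differed by more than counting noise and were all kept.

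The genes named are all those called, the 10 highest and all lower ones called only with the block at a mean of at least 1 CPM, Stat5a, Stat5b and the genes the study follows, and of each list up to 4 members by size and every called one, of which the text gives a part. Members and lists were chosen with earlier results of these data known. The pipeline was tested on simulated data. Alternatives were RLE factors, DESeq2 1.42.0, filterByExpr, no filter, the block, the groups alone, library totals, no fold minimum, and leaving out each library. With the block, these and a block of its own for each background were chosen after seeing the data. Intervals cover counting error only. RUVSeq, which the authors name, was not used here.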

Additional observations from a re-analysis of the deposited data

Results flagged for a closer look

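Il18r1, Kcnj8 and Stxbp6 passed a test of the difference between null and WT cells when each background had replicate blocks of its own, an analysis chosen after seeing the data. Stxbp6 had a log2 fold change of N642H over STAT5B that was 1.99 higher in null than in WT cells (edgeR adjusted p = 9.91e-04). By library it had 2.37, 1.6 and 1.43 CPM with STAT5B and 10.4, 7.23 and 5.41 CPM with N642H in null cells, and it overlapped in WT cells. For Kcnj8 the difference was 1.11 (edgeR adjusted p = 0.0496), with log2 fold changes of 1.07 in null and 0.10 in WT cells. For Il18r1, a subunit of the IL-18 receptor that is named because of this result, it was -1.18 (edgeR adjusted p = 0.0496). Il18r1 had 40.4, 45.2 and 23.4 CPM with STAT5B and 30.7, 42.1 and 21.6 CPM with N642H in null cells, against 50.8, 67.4 and 28 CPM and 130, 136 and 42.1 CPM in WT cells. In the test without blocks the 3 genes had an edgeR adjusted p of 1.00, and with a replicate block shared by both backgrounds no gene was called.

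Il13 and Stat5a moved in opposite directions in the 2 backgrounds within every replicate number and are given for that pattern, which was not tested on its own. In the interaction test over all genes without blocks, both had an edgeR adjusted p of 1.00. In WT cells the log2 fold change of N642H over STAT5B was -0.27 for Il13 and -0.0597 for Stat5a, against 2.55 and 0.36 in null cells. The Stat5a value in null cells changed sign among the leave-outs, as given below.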

How the results depend on the processing

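For null cells, the 14 genes called became 48 with DESeq2, 8 with filterByExpr, 28 with no filter on low counts, 46 with the 2 groups compared alone and 165 with these and the replicate block. Leaving out each library gave 3 to 25 calls. With the replicate block, 66 genes were called, and 137 with no filter, 165 with the groups alone and 31 to 79 in the leave-outs, where N642H replicates 1 and 2 and STAT5B replicate 3 lowered the count most, to 41, 32 and 31. All 14 genes kept their calls with DESeq2, with and without the block, and 58 of the 66 with DESeq2 and the block, the exceptions being 2900011O08Rik, Atf3, Ccl3, Cdhr3, Chil3, Il13, Nav1 and Tead1. For WT cells, the 1 gene called became 24 with DESeq2, 2 with no filter, 0 with the groups alone and 94 with the replicate block, with 0 to 10 in the leave-outs without the block and 42 to 165 with it. The interaction had 0 calls, 0 with the replicate block shared by the backgrounds, and 3 with a replicate block of its own for each background, where 622 genes had an unadjusted p under 0.05. The cause of these moves was not tested. N642H over Y665F gave 0 calls in every alternative run. The median of the STAT5-bound list stayed between 0.58 and 0.79, and 59 to 62 of the 63 genes were higher in WT cells. In the leave-outs, none of them calls, Stat5a ran from -0.16 (without N642H replicate 3) to 0.91, Il18r1 from -0.47 to 0.046 (without N642H replicate 3), Npas2 from -0.20 to 0.093 (without N642H replicate 1) and Hist1h2bj from -0.30 to 0.11 (without N642H replicate 3), on the log2 scale.

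With 3 libraries a group and 29 of the 63 genes under 1 CPM with STAT5B, fold changes of these genes rest on few reads in that group. Replicate 3 was the lowest N642H library for 50 of the 63 genes and the lowest STAT5B library for 41. What the replicate number marks, and whether GFP or protein levels were equal between constructs, was not analysed here.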
